A study of Homo sapiens with 4 samples.

Results

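The genes described here are 44 matrix proteases, ADAM and ADAMTS proteases and protease inhibitors, chosen as a fixed list of gene symbols and found in all 44 cases among the 55764 gene names of the deposited FPKM table. FPKM is a fragment count scaled to gene length and library depth, so levels given in FPKM can be compared between genes. Bulk RNA-seq of 4 libraries from the human line TE5, derived from a squamous carcinoma of the oesophagus, was made to ask what changes when ETS1, a transcription factor, is stably overexpressed. The ETS1 group (n = 2) carried an ETS1 vector driven by the CMV promoter and delivered by lentivirus made in HEK293T cells, and the control group (n = 2, genotype WT in the labels) carried the empty backbone. All 4 libraries are therefore from cells that took up a vector and went through selection. The labels do not say whether the cells were a pool or 1 clone, nor whether libraries 1 and 2 of a group are separate cultures, so p-values measure only the spread between these libraries, which may be technical.

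Extracellular proteolysis is carried out by enzymes that are held in check at several levels. Matrix metalloproteinases (MMPs) cut collagens and other matrix proteins, some as secreted enzymes and some anchored in the membrane, and tissue inhibitors of metalloproteinases (TIMPs) bind their active sites. Plasminogen activators make plasmin and are blocked by serpins, while ADAM proteases shed the outer parts of growth factors and receptors and ADAMTS proteases cut proteoglycans. ETS1 is best known in this field as a factor that acts with AP-1 at the promoters of MMP and urokinase genes in invasive cells.

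ETS1 was checked first. It had 0.491 and 0.509 FPKM in the controls and 1.84 and 1.87 FPKM in the ETS1 libraries, a ratio of 3.71. The recovered depth (whole reads worked back from the FPKM values) was 40356591 to 44119664 reads in the controls and 56502860 to 57269999 in the ETS1 libraries. Of the squamous basal markers, 1 of 7 (SFN) reached 1 FPKM in any library, and both controls listed KRT5, KRT14, KRT6A and TP63 at 0, so the squamous label was not borne out by these markers. Of 9 epithelial markers, 4 (KRT8, KRT18, EPCAM and CDH1) reached 1 FPKM. The summed level of 9 fibroblast markers was 2.20 to 2.36 FPKM in the controls and 3.19 to 3.28 FPKM in the ETS1 libraries, mostly from COL1A1. PTPRC, the pan-leukocyte marker CD45, was at most at 0.0117 FPKM. The 4 endothelial markers summed to 0.0448 and 0.0309 FPKM in the controls and 0.0894 and 0.0822 FPKM in the ETS1 libraries. The squamous basal markers summed to 0.461 and 0.592 FPKM in the controls and 1.30 and 1.13 FPKM in the ETS1 libraries, mostly from SFN. The epithelial markers summed to 17.1 and 17.4 FPKM in the controls and 17.7 and 17.9 FPKM in the ETS1 libraries. All 4 sums were higher in both ETS1 libraries than in either control, as was the myeloid marker ITGAM (0.250 and 0.252 against 0.522 and 0.419 FPKM), and their part in the results was not tested. Other leukocyte markers did not all follow ITGAM. AIF1 was also higher in both ETS1 libraries, while CD14, CD3E, LYZ and PTPRC overlapped between groups. CD68, at most at 0.0414 FPKM, was lower in both ETS1 libraries. A sum over the leukocyte markers is not reported here. In bulk RNA, fewer cells of a type and less RNA per cell cannot be told apart.

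Of the 44 members, 26 had a mean of at least 1 FPKM over the 4 libraries and were tested with limma on log2(FPKM + 1), with p-values adjusted over all 14306 genes that passed the same minimum. At an adjusted p under 0.05, 13 members were higher and 3 were lower in the ETS1 libraries. That is 16 of 26, beside 59.1% of all tested genes called in either direction, 30.7% higher and 28.4% lower, so the number of calls is near the background. The median log2 change of the tested members was 0.19, against 0.016 over all tested genes. Leaving out ETS1 replicate 2 left 8 members higher and 2 lower, and calls over all tested genes went from 8451 to 5790 in the same setting. The groups did not overlap for 23 of the 26, where 82.0% of all tested genes showed no overlap. A called change of at least 0.4 on the log2 scale was seen for 6 members, and 18.0% of all tested genes reached that size. The smallest two-sided p that an exact permutation test of 1 gene can give with 2 libraries against 2 is 0.33.

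**Figure D1:**
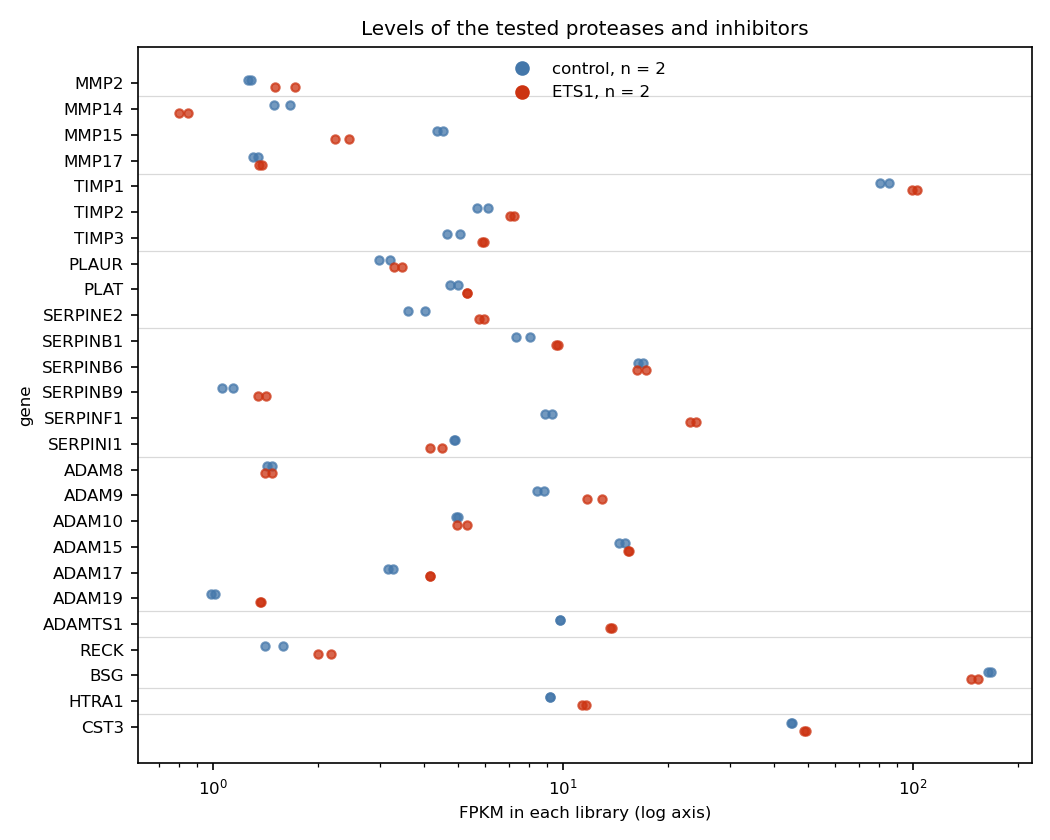
FPKM (log axis) of the 26 tested members in each of 2 control and 2 ETS1 libraries, 1 point per library, with lines between changes of role. BSG and TIMP1 were the most abundant, and the red ETS1 points of MMP14 and MMP15 lie left of the blue control points, while those of SERPINF1 lie to the right.

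The membrane-type MMPs held the largest falls among the tested members. MMP14, also known as MT1-MMP, is a membrane-anchored collagenase that also activates pro-MMP2 (chromosome 14, 22836557 to 22849027, plus strand, GENCODE 29 on GRCh38). It had 1.66 and 1.50 FPKM in the controls and 0.848 and 0.800 FPKM in the ETS1 libraries. Both ETS1 values were near 0.521 times the control mean, and the groups did not overlap. The means were 1.58 ± 0.118 and 0.824 ± 0.0339 FPKM (SD, n = 2 each), the log2 change was -0.50 (SE 0.0678) and the limma adjusted p was 0.00358. MMP14 reached the minimum of 1 FPKM through the controls, where it was high, so its entry into the test was not independent of the difference. Because a pseudocount of 1 FPKM shrinks the change of genes at this level, the authors' deposited table gives a larger log2 fold change of -0.90. MMP15, or MT2-MMP, is another membrane-type MMP of the list (chromosome 16, 58025566 to 58046901, plus strand). It had 4.36 and 4.54 FPKM in the controls and 2.45 and 2.23 FPKM in the ETS1 libraries, and it too was lower in both ETS1 libraries than in either control. Its log2 change was -0.71 (SE 0.0525, limma adjusted p 0.000845). Of 3 tested membrane-type genes, MMP17 alone did not pass. MMP17, a GPI-anchored enzyme, had 1.30 and 1.35 FPKM in the controls and 1.35 and 1.38 FPKM in the ETS1 libraries, a log2 change of 0.025 with a 95% interval of -0.12 to 0.17 (limma adjusted p 0.73). MMP16 (0.582 to 0.703 FPKM) and MMP24 (0.174 to 0.272 FPKM) overlapped between groups and lay under the minimum for testing. Neighbouring tested genes within 5 Mb had a median log2 change of -0.020 around MMP14 (70 genes) and -0.077 around MMP15 (41 genes).

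The secreted MMPs were scarce in TE5 cells. MMP2, gelatinase A, was the only one of 8 to reach a mean of 1 FPKM, with 1.26 and 1.28 FPKM in the controls and 1.50 and 1.71 FPKM in the ETS1 libraries. Both ETS1 values were above both controls, but the log2 change of 0.20 (95% interval 0.026 to 0.37) had a limma adjusted p of 0.0532. It passed with no intensity trend (adjusted p 0.0298), with the chromosome median removed (0.032) and on recovered reads with voom (0.0148), and not in the authors' deposited table (0.0735). MMP11, stromelysin-3, had 0.702 and 0.782 FPKM in the controls and 0.747 and 0.829 FPKM in the ETS1 libraries, which overlap. MMP11 shares 218 exon bases with CHCHD10 on the other strand, which had 68.4 and 68.7 FPKM against 41.3 and 41.5 FPKM, so without knowledge of strand the level of MMP11 is uncertain. MMP9, gelatinase B, had 0.202 and 0.204 FPKM in the controls and 0.0823 and 0.0683 FPKM in the ETS1 libraries. Its read numbers were 19 and 21 against 11 and 9. Both ETS1 libraries were lower than either control although they were sequenced more deeply, and the ratio of reads per depth was 0.371 (95% interval 0.206 to 0.650, exact binomial, counting error only). MMP9 shares 430 exon bases, 18.4% of its own, with SLC12A5-AS1 on the other strand, which has no listed level. Without knowledge of strand the fall of MMP9 is uncertain.

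A cluster of 9 MMP genes lies on chromosome 11 between 102520508 and 102955734 (GENCODE 29 on GRCh38), and 5 of them are members. MMP10, stromelysin-2, went from 2 and 2 reads in the controls to 13 and 15 reads in the ETS1 libraries, a ratio per depth of 5.20 (95% interval 1.82 to 20.4). MMP3, stromelysin-1, had 1 and 2 reads against 6 and 8, a ratio of 3.47 (95% interval 0.967 to 18.8). MMP13, collagenase-3, had 3 and 2 reads against 12 and 7, a ratio of 2.82 (95% interval 1.02 to 9.67). All 3 had more reads in each ETS1 library than in either control, at levels of at most 0.151 FPKM. MMP1, interstitial collagenase, stayed at 2 and 0 reads against 3 and 2, and MMP7, matrilysin, at 0 and 0 against 0 and 1. Of the cluster genes outside the list, MMP12 had 1 and 4 reads against 5 and 8, MMP8 had 3 and 1 against 5 and 0, and MMP20 and MMP27 were listed at 0 FPKM in every library. Summed over the cluster, a sum chosen after its values were seen, there were 12 and 11 reads in the controls and 44 and 41 in the ETS1 libraries. MMP9, MMP10, MMP3 and MMP13 were under the minimum for testing. In limma's voom on recovered reads, an alternative added after the data were seen that tested 19563 genes with at least 10 reads in all, MMP9 was lower (-1.40 on the log2 scale, adjusted p 0.0146) and MMP10 higher (2.10, adjusted p 0.0142). MMP3 and MMP13 had adjusted p-values of 0.105 and 0.127. MMP10, MMP3 and MMP13, with 4, 3 and 5 reads in the controls, reached 10 reads through the ETS1 libraries where they were high. Their entry into that test was therefore not independent of the difference.

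Promoters are shown for MMP14, which fell, and for its paralogs MMP10 and MMP7 of the chromosome 11 cluster, whose windows hold matches to an ETS and an AP-1 motif. Each line gives the 250 bases before the RefSeq start on GRCh38.p14, 5′ to 3′ on the gene's strand, with capitals for matches to GGAA, the core of ETS sites, and to TGANTCA, an AP-1 site, on either strand.
MMP14 (chr14:22836335-22836584, plus strand): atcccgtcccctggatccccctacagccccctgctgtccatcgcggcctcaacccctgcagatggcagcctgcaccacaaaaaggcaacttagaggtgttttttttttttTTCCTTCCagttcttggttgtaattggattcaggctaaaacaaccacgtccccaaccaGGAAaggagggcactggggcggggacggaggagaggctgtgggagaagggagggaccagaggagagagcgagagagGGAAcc
MMP10 (chr11:102780629-102780878, minus strand): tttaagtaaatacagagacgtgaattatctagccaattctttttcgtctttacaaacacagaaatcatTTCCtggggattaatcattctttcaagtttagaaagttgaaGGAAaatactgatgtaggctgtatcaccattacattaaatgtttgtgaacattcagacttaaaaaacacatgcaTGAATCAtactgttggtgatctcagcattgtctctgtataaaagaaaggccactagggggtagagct
MMP7 (chr11:102530748-102530997, minus strand): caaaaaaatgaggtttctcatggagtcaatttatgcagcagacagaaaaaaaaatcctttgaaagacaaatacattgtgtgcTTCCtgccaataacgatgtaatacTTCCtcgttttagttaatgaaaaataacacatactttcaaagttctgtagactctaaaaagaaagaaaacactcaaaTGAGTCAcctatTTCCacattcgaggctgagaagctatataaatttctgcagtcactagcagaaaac
MMP10 and MMP7 both hold TGANTCA, in each case starting 67 bases before the start, as TGAATCA in MMP10 and TGAGTCA in MMP7. In MMP7 a GGAA on the opposite strand starts 55 bases before the start, and in MMP10 the nearest GGAA lies 141 bases before it. MMP14 holds 4 GGAA matches and no TGANTCA. The table had promoters for 29 of the 44 members. TGANTCA was in 5 of these 29 and in 6.60% of all 27305 promoters of that length, on both strands. By limma call, it was in 0 of 9 members higher, 0 of 3 lower, 1 of 7 not called and 4 of 10 not tested. The windows of MMP10 and MMP7 were shown because they hold it. GGAA was in all 29, as in 92.8% of all promoters, and the longer CCGGAAGT, which contains it, was in 0 of 29 and in 3.64% of all. A match is a description of letters and not a site.

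Of the inhibitors of MMPs, TIMP1, TIMP2, TIMP3 and RECK rose, and TIMP4 lay under the minimum for testing. TIMP1 (chromosome X, 47582313 to 47586789, plus strand), by far the most abundant TIMP, had 85.2 and 80.7 FPKM in the controls and 102.5 and 99.2 FPKM in the ETS1 libraries. TIMP2, which binds MMP14 and helps it to activate pro-MMP2, had 6.10 and 5.69 FPKM against 7.05 and 7.23 FPKM. TIMP3, which is held in the matrix and also inhibits ADAM17, had 4.67 and 5.09 FPKM against 5.95 and 5.88 FPKM. All 3 rose without overlap and by close to the same factor, with ratios of 1.22, 1.21 and 1.21. Their log2 changes were 0.28 (SE 0.0379), 0.24 (SE 0.0443) and 0.24 (SE 0.0487), with limma adjusted p-values of 0.00359, 0.00897 and 0.0126. Under quantile normalization the log2 changes were 0.43, 0.19 and 0.18, so the likeness of the factors depended on scaling. The call of TIMP2 was lost without ETS1 replicate 2 (adjusted p 0.0532). That of TIMP3 was lost without ETS1 replicate 1 (0.0613), without ETS1 replicate 2 (0.0544) and with no filter (0.0538). TIMP4 was near the limit of detection, with 12 and 13 reads against 9 and 16, and a ratio per depth of 0.742 (95% interval 0.409 to 1.35). TIMP4 shares 170 exon bases with SYN2 on the other strand, which was at 1.51 to 1.67 FPKM.

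RECK, a membrane-anchored inhibitor of several MMPs, had 1.58 and 1.41 FPKM in the controls and 1.99 and 2.18 FPKM in the ETS1 libraries, without overlap. Its log2 change was 0.31 (SE 0.0668, limma adjusted p 0.0151), and the call was lost without ETS1 replicate 2 (0.0808) and with no filter (0.0668). BSG, basigin or EMMPRIN, induces MMP production in neighbouring cells and was the most abundant member. It had 163.4 and 167.5 FPKM in the controls and 153.1 and 146.6 FPKM in the ETS1 libraries, 0.906 times the control mean. Its log2 change of -0.14 (SE 0.0334) had a limma adjusted p of 0.0189, but the direction depended on scaling and was 0.062 (adjusted p 0.111) under quantile normalization. The call was also lost without control replicate 2 (0.0619), without ETS1 replicate 2 (0.105) and with no filter (0.0692).

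Summed over the 13 MMP members, the level was 10.4 and 10.6 FPKM in the controls and 8.04 and 8.21 FPKM in the ETS1 libraries. The 5 membrane-type MMPs fell from 8.16 and 8.28 FPKM to 5.43 and 5.31 FPKM. The 8 secreted MMPs went the other way, from 2.25 and 2.33 FPKM to 2.61 and 2.90 FPKM. The 4 TIMPs summed to 96.2 and 91.6 FPKM in the controls and 115.6 and 112.5 FPKM in the ETS1 libraries, of which TIMP1 made up 88.0% to 88.7%. The TIMP sum was thus 9.24 and 8.63 times the MMP sum in the controls and 14.4 and 13.7 times in the ETS1 libraries. These are sums of RNA levels and carry no test. MMP14 and MMP15 gave 57.8% and 56.9% of the MMP sum in the controls and 41.0% and 36.9% in the ETS1 libraries. The ratio of TIMP2 to MMP14 was 3.67 and 3.80 in the controls and 8.32 and 9.04 in the ETS1 libraries. As TIMP2 was higher and MMP14 lower, each without overlap, this ratio had to separate the groups and adds no result of its own.

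**Figure D2:**
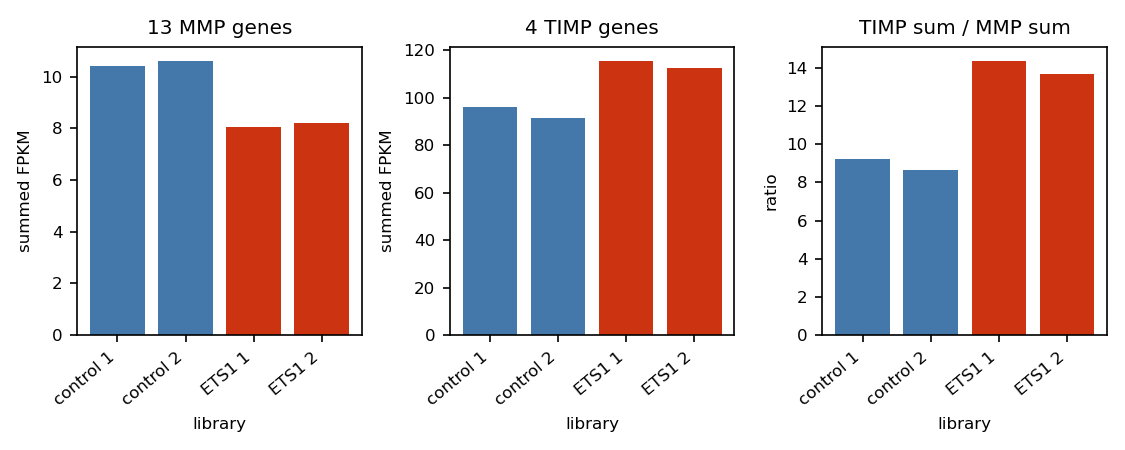
Summed FPKM of 13 MMP and 4 TIMP genes and the ratio of both sums, 1 bar per library from 0, blue for control and red for ETS1. The MMP bars are lower and the TIMP bars higher in both ETS1 libraries, and the ratio goes from 9.24 and 8.63 to 14.4 and 13.7.

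Of 3 tested genes of plasminogen activation, the inhibitor SERPINE2 rose and PLAUR and PLAT did not pass. SERPINE2, protease nexin-1, inhibits thrombin, urokinase and tissue plasminogen activator (chromosome 2, 223975112 to 224039319, minus strand). It had 4.03 and 3.62 FPKM in the controls and 5.76 and 5.95 FPKM in the ETS1 libraries, a ratio of 1.53. Both ETS1 values stood clear of the controls, with a log2 change of 0.51 (SE 0.0548) and a limma adjusted p of 0.00193. The 30 tested genes within 5 Mb also had a positive median, of 0.22. PLAU, which encodes urokinase, had 0.874 and 0.730 FPKM in the controls and 1.30 and 1.01 FPKM in the ETS1 libraries. Its mean lay just under the minimum, so limma did not test it. The groups did not overlap, and PLAU was higher in voom on recovered reads (0.53, adjusted p 0.0241). In the authors' deposited table, its log2 fold change of 0.35 had an adjusted p of 0.074. PLAU shares 916 exon bases with C10orf55 on the other strand, which was at most at 0.0970 FPKM. PLAUR, the urokinase receptor, had 3.21 and 2.98 FPKM against 3.47 and 3.29 FPKM (log2 change 0.099, 95% interval -0.037 to 0.23, limma adjusted p 0.162). PLAT, tissue plasminogen activator, had 5.03 and 4.77 FPKM against 5.31 and 5.31 FPKM (0.099, 95% interval -0.0069 to 0.20, limma adjusted p 0.0922). PLAT passed with voom on recovered reads of the genes with a mean of at least 1 FPKM (adjusted p 0.048), and not with at least 10 reads (0.0543) or in the authors' deposited table (0.284).

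SERPINF1 had the largest change of the tested members. It encodes pigment epithelium-derived factor, a secreted serpin that does not inhibit proteases and is known as an inhibitor of angiogenesis (chromosome 17, 1761959 to 1777574, plus strand). It had 8.88 and 9.28 FPKM in the controls and 24.0 and 23.1 FPKM in the ETS1 libraries. Its read numbers were 1100 and 1257 against 4229 and 4009. The groups were far apart relative to the spread within them, with means of 9.08 ± 0.284 and 23.6 ± 0.666 FPKM (SD, n = 2 each). The log2 change was 1.29 (SE 0.0381, limma adjusted p 0.000369). The 74 tested genes within 5 Mb had a median log2 change of 0.13.

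Of 3 tested intracellular clade B serpins, SERPINB1 rose. On chromosome 6, SERPINB1, an inhibitor of neutrophil proteases, had 8.07 and 7.34 FPKM in the controls and 9.68 and 9.52 FPKM in the ETS1 libraries (log2 change 0.29, SE 0.0499, limma adjusted p 0.00757). Its neighbour SERPINB9, the granzyme B inhibitor, had 1.14 and 1.06 FPKM against 1.41 and 1.35 FPKM, without overlap and with a limma adjusted p of 0.0586 (0.18, 95% interval 0.018 to 0.34). SERPINB9 passed with no intensity trend (adjusted p 0.02) and with voom on recovered reads (0.0228), and not in the authors' deposited table (0.146). SERPINB6, next to both, had 16.4 and 16.9 FPKM against 17.3 and 16.3 FPKM, with overlapping groups and a 95% interval of -0.092 to 0.12 for the log2 change. On chromosome 18, SERPINB8 had 0.509 and 0.559 FPKM in the controls and 0.287 and 0.242 FPKM in the ETS1 libraries, a ratio of 0.496 without overlap and under the minimum for testing. SERPINB8 shares 370 exon bases with HMSD on the same strand, which was also lower, from 0.414 and 0.455 FPKM to 0.0117 and 0.0591 FPKM, so reads of the pair cannot be told apart there. SERPINB5, maspin, was close to absent, with 5 and 3 reads against 1 and 1. The tested genes within 5 Mb of these chromosome 18 genes had a median of 0.14.

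Of the remaining inhibitors, CST3, the cysteine protease inhibitor cystatin C, had 45.0 and 44.8 FPKM in the controls and 49.4 and 48.9 FPKM in the ETS1 libraries. This 1.09-fold rise was small but larger than the spread within groups (log2 change 0.13, SE 0.0252, limma adjusted p 0.0112). It was lost without ETS1 replicate 1 (0.083) and without ETS1 replicate 2 (0.0657), and the authors' deposited table gives an adjusted p of 0.0525. SERPINI1, neuroserpin, an inhibitor of tissue plasminogen activator, had 4.90 and 4.90 FPKM against 4.17 and 4.52 FPKM (-0.14, 95% interval -0.27 to -0.021, limma adjusted p 0.0506), without overlap. SERPINI1 passed with quantile normalization (adjusted p 0.0179), median centring (0.036) and the chromosome median removed (0.0203), and not with voom on recovered reads (0.0706) or in the authors' deposited table (0.173). SERPINA1, the antitrypsin gene, was close to absent, with 1 read in ETS1 replicate 1 and 0 in the other libraries.

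**Figure D3:**
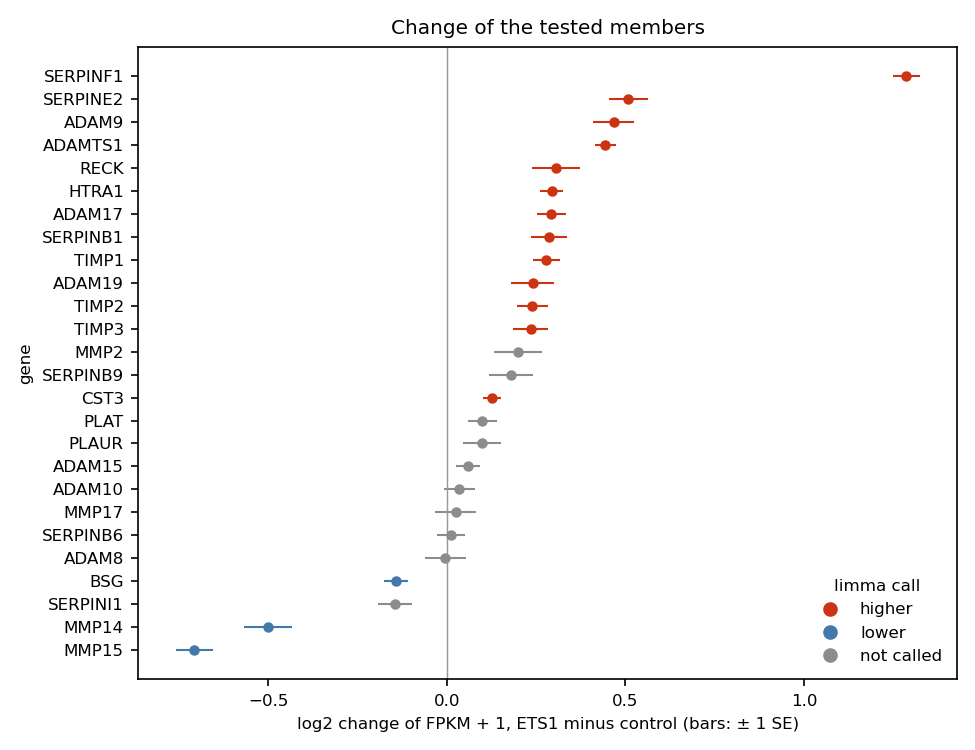
Log2 change of FPKM + 1 (ETS1 minus control) of the 26 tested members with bars of ± 1 SE, sorted, red for called higher, blue for called lower and grey for not called. SERPINF1 stands at 1.29, MMP15 at -0.71 and MMP14 at -0.50, and most others lie between -0.2 and 0.5.

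Of 6 tested ADAM genes, ADAM9, ADAM17 and ADAM19 rose, and ADAM8, ADAM10 and ADAM15 did not pass. ADAM9 (chromosome 8, 38996869 to 39105144, plus strand), a widely expressed sheddase, had 8.82 and 8.42 FPKM in the controls and 11.7 and 12.9 FPKM in the ETS1 libraries. It rose by 0.47 on the log2 scale (SE 0.0563, limma adjusted p 0.00258), while the 33 tested genes within 5 Mb had a median of -0.26 and 8 of them were higher. PLAT, on the same chromosome, had a like neighbourhood, with a median of -0.25 over 34 genes. Once the chromosome median was removed, the change of PLAT was 0.25 and passed (adjusted p 0.00315), and that of ADAM9 was 0.62. ADAM17, the TNF-converting enzyme that also releases EGF receptor ligands, had 3.27 and 3.16 FPKM against 4.16 and 4.16 FPKM (0.29, SE 0.0409, limma adjusted p 0.0039). ADAM17 shares 1323 exon bases with IAH1 on the other strand, which went from 4.43 and 4.24 FPKM to 7.62 and 7.62 FPKM. Whether reads were counted by strand is not given in the sources used here, so the rise of ADAM17 is uncertain. ADAM19 had 1.02 and 0.985 FPKM against 1.37 and 1.36 FPKM (0.24, SE 0.0599, limma adjusted p 0.0223). It lost the threshold when any 1 of the 4 libraries was left out (adjusted p 0.0548 to 0.10), with no filter (0.0695) and with the chromosome median removed (0.053). The control mean of ADAM19 was 0.9999 FPKM, so it reached the minimum for testing through the ETS1 libraries, where it was high.

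ADAM10, the main sheddase of Notch and of cadherins, had 5.02 and 4.96 FPKM in the controls and 4.99 and 5.30 FPKM in the ETS1 libraries. The groups overlapped, with a log2 change of 0.035 (95% interval -0.076 to 0.15). The gene lies on chromosome 15, where the median of 389 other tested genes was -0.23, and with that median removed ADAM10 was higher by 0.27 (adjusted p 0.00288). ADAM15 had 14.4 and 15.0 FPKM against 15.4 and 15.4 FPKM (limma adjusted p 0.181), and ADAM8 had 1.43 and 1.47 against 1.48 and 1.41 FPKM (limma adjusted p 0.956). Their 95% intervals for the log2 change were -0.027 to 0.15 and -0.15 to 0.14.

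ADAM12 (chromosome 10, 126012381 to 126388455, minus strand), a protease and adhesion protein of mesenchymal cells, had the largest ratio of any member, at a very low level. It had 0.00502 and 0.0161 FPKM in the controls and 0.127 and 0.149 FPKM in the ETS1 libraries. In reads this was 2 and 7 against 72 and 83, a ratio per depth of 12.8 (95% interval 6.56 to 28.5). Both ETS1 libraries stood far above both controls. In voom on recovered reads ADAM12 was higher by 3.71 on the log2 scale (adjusted p 0.000108). With 9 reads in the controls, ADAM12 reached 10 reads through the ETS1 libraries where it was high. Its entry into that test was therefore not independent of the difference.

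**Figure D4:**
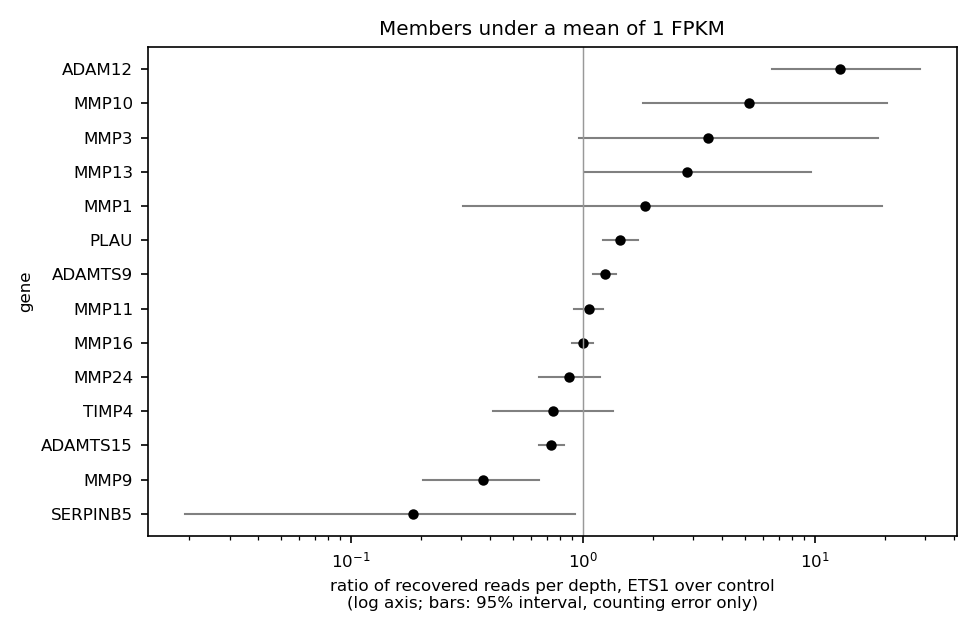
Ratio of recovered reads per depth (ETS1 over control, log axis) for the 14 members under a mean of 1 FPKM that had recovered reads in the controls, with 95% exact intervals that cover counting error only. ADAM12 at 12.8 and MMP10 at 5.20 lie to the right of 1 and MMP9 at 0.371 to the left, with intervals that do not reach 1.

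Among the ADAMTS proteases, ADAMTS1, which cuts aggrecan and versican, had 9.79 and 9.80 FPKM in the controls and 13.8 and 13.6 FPKM in the ETS1 libraries (chromosome 21, 26835747 to 26845409, minus strand). The controls were almost identical and both ETS1 libraries stood 1.40-fold above them (log2 change 0.44, SE 0.0299, limma adjusted p 0.00072). ADAMTS9 had 0.508 and 0.596 FPKM against 0.699 and 0.677 FPKM, and ADAMTS15 had 1.14 and 1.05 FPKM against 0.811 and 0.785 FPKM. Both were under the minimum. In voom on recovered reads ADAMTS9 was higher (0.32, adjusted p 0.0225) and ADAMTS15 lower (-0.45, adjusted p 0.00359). The authors' deposited table gives ADAMTS9 an adjusted p of 0.117 and ADAMTS15 one of 0.0139. HTRA1, a secreted serine protease that cuts fibronectin, had 9.18 and 9.20 FPKM against 11.4 and 11.6 FPKM (0.29, SE 0.0315, limma adjusted p 0.0019). TMPRSS4, a membrane serine protease, had 0 and 0 reads against 2 and 1.

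Over the 39 members with at least 10 recovered reads, voom called 19 higher and 5 lower, beside 27.9% higher and 23.5% lower, or 51.4% in either direction, among all 19563 genes of that test. The 19 include MMP10 and ADAM12, which reached 10 reads through the ETS1 libraries, so nothing is read from this count. The authors' deposited table, which holds 31 of the members, gives 12 of them as higher and 4 as lower (adjusted p under 0.05), beside 25.3% higher and 25.9% lower, or 51.2% in either direction, of all its genes with an adjusted p.

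**Figure D5:**
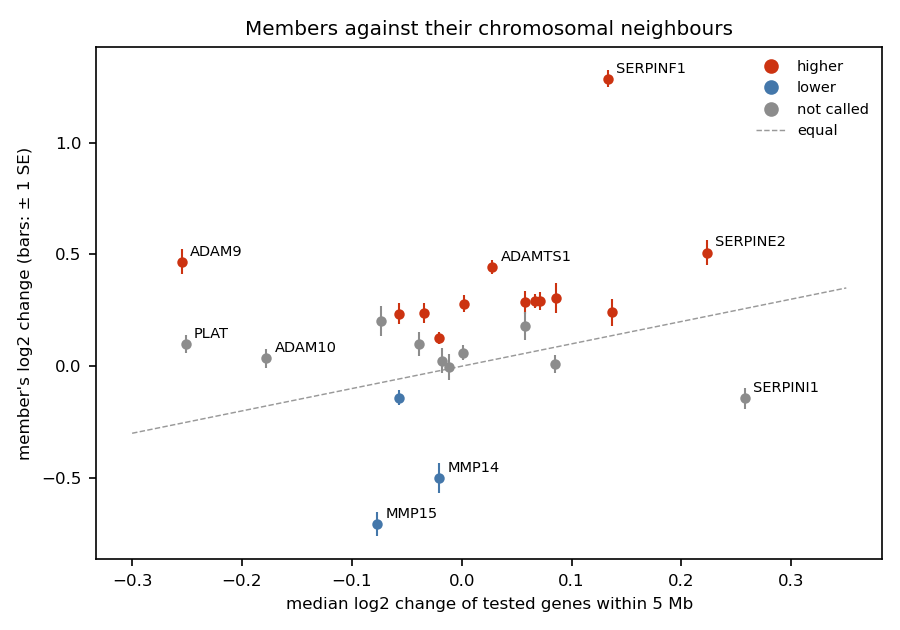
Log2 change of each of the 26 tested members (vertical, bars ± 1 SE) against the median log2 change of the tested genes within 5 Mb (horizontal), coloured by limma call, with a dashed line of equality. ADAM9, PLAT and ADAM10 lie above neighbours with medians of -0.26, -0.25 and -0.18, while SERPINE2 at 0.51 lies above neighbours with a median of 0.22 and SERPINI1 at -0.14 lies below neighbours with a median of 0.26.

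Other genes of extracellular proteolysis, listed together with some matrix-modifying enzymes that are not proteases, were read from the same fit. Of 103 such genes outside the list, 39 were tested, and 10 were higher and 13 lower. Their median log2 change was 0.0035. The number lower was 6 without ETS1 replicate 1 and likewise without ETS1 replicate 2. The 23 calls are 59.0% of those tested, near the 59.1% of all tested genes. SPINT2, which inhibits the serine proteases hepsin and matriptase, went from 3.32 and 3.29 FPKM to 7.29 and 6.88 FPKM, the largest change among them (log2 change 0.91, SE 0.0428, limma adjusted p 0.000482). LRP1, the receptor that clears complexes of proteases and inhibitors, went from 1.55 and 1.62 FPKM to 2.85 and 2.85 FPKM (0.57). CTSV, a cysteine cathepsin, ADAMTS7 and RHBDF1, a partner of ADAM17, rose by 0.49, 0.33 and 0.33 on the log2 scale. ADAMTS17 (-0.56), CTSB (-0.34), the gene of cathepsin B, and RHBDF2 (-0.32), the second partner of ADAM17, fell. Limma adjusted p-values for these 7 genes after SPINT2 were at most 0.00942. PLG, the gene of plasminogen, was listed at 0 in every library.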

How the data were processed

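Bulk RNA-seq libraries of TE5 cells (2 ETS1, 2 control) were analysed from 2 deposited tables. Per the submitters' processing notes, HISAT2, HTSeq and DESeq2 were used with hg38 (GRCh38); versions, annotation and use of strand are not given in the sources used here. The authors' FPKM table holds 55764 genes. The authors' comparison table holds 16652 genes with a mean normalized count per gene (a signal averaged over the libraries, per the file headers), a log2 fold change with its standard error, a p-value and an adjusted p-value, per the file headers.

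FPKM was taken as log2(FPKM + 1) for genes with a mean of at least 1 FPKM and fitted with limma 3.58.1 (R 4.3.3), with a group term, an intensity trend and Benjamini-Hochberg adjustment over 14306 genes, two-sided, at 0.05. The fit has 2 residual and 2.84 prior degrees of freedom. Fold changes on this scale understate changes of low genes.

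Read numbers are not listed in the tables. They were recovered by finding the depths at which FPKM and the mean normalized counts give whole reads. For the 2885 genes whose mean count was below 100, 99.3% of values came out whole (tolerance 0.05). These genes were also used to find the depths, so that share is no independent check. Genes outside the comparison table used GENCODE 29 exon lengths, and those with all 4 values within 0.1 of a whole number were kept. That was 7120 of 9768 such genes, or 72.9%. The reads of MMP9, MMP10 and ADAM12, among other low members, came by this route. Reads were recovered for 43 of 44 members, all but SERPINB8. Ratios per depth have exact binomial 95% intervals. The ETS1 libraries were 1.35 times deeper.

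Positions are from GENCODE 29 and promoters from RefSeq (GRCh38.p14). Protein sequences were not used here. Some genes of the marker and pathway lists are not reported here. The members, lists and tests were chosen with earlier results of these data known. All members with a mean of at least 1 FPKM were described, lower ones by range or, where groups did not overlap, by values, and of other pathway genes the 8 called ones with the largest change. The limma step was tested on simulated data. Alternatives were another pseudocount, filter, scaling or variance prior, a replicate block, voom on recovered reads, the authors' deposited table, removal of chromosome medians and leaving out each library.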

Additional observations from a re-analysis of the deposited data

How the results depend on the processing

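Of the 16 called members, 10 kept their direction and side of the threshold under every alternative that could test them (MMP14, MMP15, TIMP1, SERPINE2, SERPINB1, SERPINF1, ADAM9, ADAM17, ADAMTS1 and HTRA1), and BSG alone reversed, to 0.062 under quantile normalization. Leaving out 1 library gave 8 to 12 members higher, 2 to 3 lower, 5790 to 7680 calls over all genes, and 7 to 9 higher and 6 to 11 lower among the other pathway genes. A mean of at least 5 FPKM gave 5562 calls over all genes, 1 member lower, and 3 higher and 8 lower among the other pathway genes, with fewer genes tested. Voom on recovered reads gave 17 of those genes higher, and with at least 10 reads it called 5 members lower, with more genes tested. Removing the chromosome median gave 8 other pathway genes lower, and the cause was not tested. Members near 0 changed sign: MMP17 was -0.016 under quantile normalization and -0.047 without the chromosome median, ADAM10 -0.023 under quantile normalization and -0.0017 to 0.072 with 1 library left out, and ADAM8 -0.025 to 0.016 with 1 library left out. SERPINB6 was -0.0045 with median centring, -0.010 in the authors' deposited table, -0.054 without the chromosome median and -0.028 to 0.051 with 1 library left out. With the replicate number as a block, 12 members were higher and 3 lower and 7283 genes were called, and ADAM19 lost the threshold (adjusted p 0.0543). The labels do not say that the numbers pair the libraries, and the replicate differences of both groups had a Pearson r of -0.046 across genes, which are not independent replicates. Members under 20 reads can show only large ratios at this depth.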
